A study of Mus musculus with 40 samples.

Results

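The collagen genes code for the alpha chains of collagens, the proteins that give the extracellular matrix its fibres and sheets. They were taken as every gene whose symbol in the deposited gene table begins with Col, 1 or 2 digits, an a and further digits, such as Col1a1. The rule found 40 genes with 73 probes among 29411 gene symbols. Each gene was followed through its probe with the highest mean log2 intensity over 38 arrays, so 40 probes stand for 40 genes.

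The arrays measured RNA of subcutaneous stromal vascular cells of C57BL/6J mice, which the series also calls infiltrating macrophages. Mice were weaned at 3 to 4 weeks of age and split at random between 5 diets, with 30 animals to a diet. LFC mice had a low-fat control diet. HFC mice had a diet high in fat with added sucrose. HF5, HF20 and HF75 mice had that same high-fat diet with 5, 20 or 75 µg of KAL-1, an ethano-botanical formulation given as an aqueous preparation. For LFC, as for HFC, there were 11 arrays, labelled days 1, 6, 10 and 14 and weeks 0, 3, 6, 9, 12, 15 and 18, where week 0 was counted as day 14 and week 18 as day 140. HF5 had 6 arrays, at weeks 3 to 18, and HF20 and HF75 had 5 each, at weeks 3 to 15. The 2 remaining arrays, of week 18, carried conflicting doses and entered no group. The series text speaks of 3 biological replicates, but the labels gave 1 array per diet and time label. At each killing 5 animals of a group were taken, and how many of them went into an array is not stated, so every p-value below measures the spread between arrays.

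Collagen chains wind around each other into a helical rod, and the set of chains decides what is built. Fibril-forming collagens give tissue its tensile strength, network-forming collagens make the basement membranes under endothelium and around adipocytes and smooth muscle, and others decorate fibrils, form beaded filaments or cross the cell membrane. In fat tissue, fibroblasts and their progenitors are a main source of fibrillar chains, and type VI collagen is a prominent part of the matrix around adipocytes.

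A level below is the log2 intensity of a probe relative to the 75th percentile of its array. Intensities not well above background, by the scanner software's own test, were raised to the lowest level on that array that was. The intensity at the 75th percentile had a median of 824 for LFC (lowest 7.86, highest 2044), 780.1 for HFC (161 and 1623), 704 for HF5 (458 and 1448), 1126 for HF20 (749 and 1793) and 520.1 for HF75 (442 and 732). Spot intensity over local background had a median of 4.86 over the arrays, and the number of arrays limits the precision. Saturated spots make the level a lower limit, for Col1a2 on 24 arrays, Col3a1 on 21 and Col1a1 on 9. Of the HFC arrays of weeks 3 to 15, all 5 were saturated for Col1a2 and Col3a1, and of the HF75 arrays 0 were.

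Some arrays stood apart. The LFC array of week 3 was dim, with 16.8% of spots well above background against a median of 68.6%, and 11 of 40 collagen genes above background. No level there could lie below -0.03, which is high for many collagen genes. On the day 14 array of LFC the software marked 9104 spots as outliers, and 8 collagen genes were lost. Over all genes these arrays were far from the rest, with median rank correlations of 0.497 at day 14 and 0.546 at week 3. The LFC array of week 18 had a rank correlation of 0.840 across all genes but 0.414 across the collagen genes, of which 19 were above background. Its median collagen level was -5.88. On the HF5 array of week 3, 25 collagen genes were above background. Medians of the comparisons that use these arrays are given with and without them.

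The label was checked against markers. All 8 macrophage markers were well above background on at least 35 of 38 arrays, and their mean level ran from -1.49 on the HFC array of day 1 to 2.77 on the HFC array of week 6. Cd14 was the brightest probe of that list. All 10 fibroblast markers other than collagens were above background on at least 35 arrays, with Dcn the brightest and mean levels from -3.81 on the LFC array of week 18 to 4.02 on the HFC array of week 15. Markers of adipocytes, endothelial cells, mural cells, T cells, B cells, Schwann cells, skeletal muscle, epithelium and red cells were also above background on most arrays. Of the cartilage and bone list, Acan, Sox9 and Comp were so on 36, 36 and 35 of 38 arrays, and the bone gene Ibsp on 4. The RNA therefore carried the markers of many kinds of cells, stromal and other, beside those of macrophages. Saturated probes make the mean of a list a lower limit, which held for genes of the fibroblast, mural, adipocyte, muscle, epithelial and red cell lists on some arrays. In such bulk samples, fewer cells of a type and less RNA per cell cannot be told apart.

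Of the 40 collagen genes, 5 were well above background on every array: Col6a3, Col7a1, Col16a1, Col18a1 and Col1a2. Only Col10a1, a chain of growth-plate cartilage, Col20a1, a fibril-associated chain, and Col9a1, a cartilage chain, were above background on under 50% of the arrays, at 5, 9 and 11 of 38. Among genes above background on no fewer than 50% of arrays, the median SD over the 38 arrays was 1.60 for 37 collagen genes and 1.00 for all 20158. Without the LFC array of week 18 it was 1.27 and 0.97, and without all 4 arrays named above 1.01 and 0.77. Over all 38 arrays the largest SDs were 2.83 for Col24a1, 2.39 for Col8a2, 2.28 for Col4a6, 2.11 for Col4a5 and 2.04 for Col11a1.

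**Figure D1:**
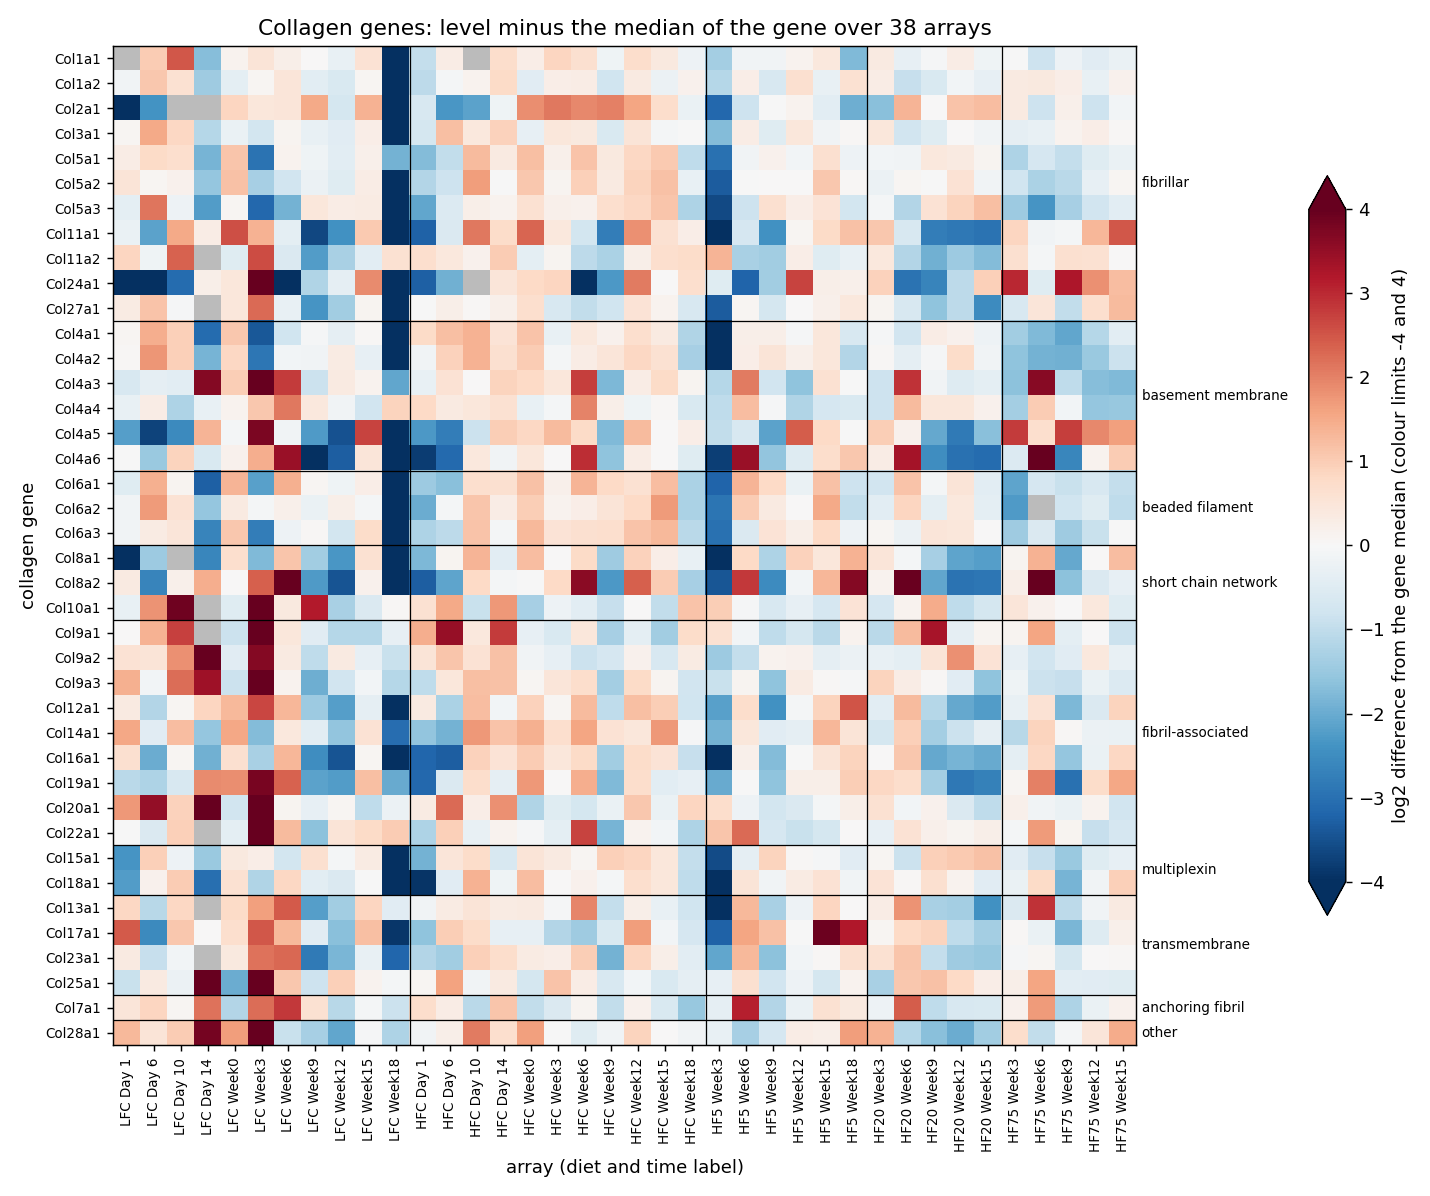
Level of each collagen gene (by class) on each array (by diet and time label) minus the gene's median over 38 arrays (log2, limits -4 and 4), with values dropped as outliers in grey. The LFC array of week 18 is low in most classes, and Col4a6 and Col8a2 are high on the 5 arrays of week 6.

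The fibrillar class had 11 genes. Col1a1 and Col1a2 code for the chains of type I collagen, the main fibril of connective tissue. Col1a1 had levels of -3.95 to 7.96 (median 5.66) on LFC arrays, 4.52 to 6.33 (median 5.82) on HFC, 3.71 to 5.88 (median 5.33) on HF5, 5.13 to 5.82 (median 5.44) on HF20 and 4.64 to 5.46 (median 5.19) on HF75. Apart from the LFC array of week 18, the lowest Col1a1 level was 3.71, on the HF5 array of week 18, and all 5 diets overlapped. Col1a2 had -2.33 on the LFC array of week 18 and 4.68 to 7.18 on the other 37 arrays. Col3a1, the chain of type III collagen that forms mixed fibrils with type I, had -5.93 on that same array and 4.18 to 7.43 on the others. Levels on saturated arrays within these ranges are lower limits.

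**Figure D2:**
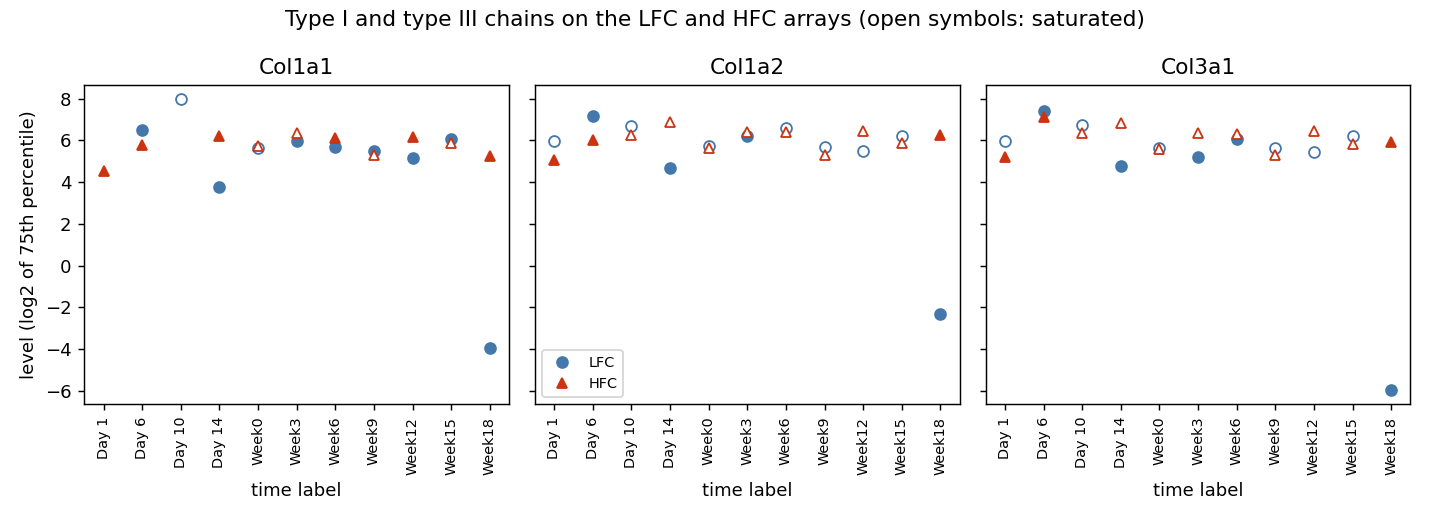
Levels of Col1a1, Col1a2 and Col3a1 (log2 of the intensity relative to the array's 75th percentile) on LFC and HFC arrays by time label, with open symbols for saturated arrays, whose levels are lower limits. The LFC array of week 18 lies at -3.95, -2.33 and -5.93, below every other array plotted.

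Type V chains start and limit the width of type I fibrils. On the 11 LFC arrays Col5a1 had levels of -0.01 to 4.06 (median 3.09), Col5a2 -6.79 to 2.49 (median 1.06) and Col5a3 -5.11 to 5.87 (median 3.51). On the 11 HFC arrays they had 1.21 to 4.22 (median 3.36), 0.14 to 2.97 (median 1.68) and 1.65 to 4.84 (median 3.93). The LFC lows were on the arrays of weeks 3 and 18. Col11a1, a chain of type XI collagen best known from cartilage, spanned -6.79 to 1.14 over all arrays. Col24a1, a fibrillar chain described in developing bone and cornea, spanned the widest range of levels within the class except for Col3a1, from -6.52 on the LFC array of week 18 to 6.13 on the dim LFC array of week 3. On HF75 arrays Col24a1 had 4.05, 0.55, 4.28, 2.86 and 2.28 at weeks 3, 6, 9, 12 and 15, and on HFC arrays 1.90, -4.77, -1.25, 3.11 and 1.04. These ranges overlapped.

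Among the 6 type IV genes, Col4a1 and Col4a2 code for the chains of the network found in nearly all basement membranes. Col4a1 had levels of -6.66 to 4.79 (median 3.29) on LFC arrays and 2.14 to 4.73 (median 3.88) on HFC arrays, and Col4a2 had -5.56 to 4.62 (median 2.75) and 1.52 to 4.25 (median 3.48). For both genes the LFC arrays of day 14, week 3 and week 18 were the lowest of that diet. Col4a5 and Col4a6 belong to a network of basement membranes in smooth muscle, skin and kidney. Col4a6 had 1.96, 1.46, 1.95, 1.83 and 2.63 on the week 6 arrays of LFC, HFC, HF5, HF20 and HF75, and at most -0.03 on every other array of these diets. On the week 6 arrays the epithelial list had 3.74, 0.84, 3.46, 2.76 and 1.48 and the Schwann list -2.58, -2.69, -2.82, -2.47 and -2.93, and their part in the result was not tested. Col4a5 ranged from -6.73 on the LFC array of week 18 to 2.42 on the LFC array of week 3, and Col4a6 had a second probe that did not follow the first (r = -0.244 over 38 arrays).

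Type VI collagen forms beaded filaments that join cells to the matrix, and its chains come from Col6a1, Col6a2 and Col6a3. On LFC arrays Col6a1 had levels of -6.79 to 3.56 (median 2.19), Col6a2 -3.95 to 2.33 (median 0.56) and Col6a3 -0.69 to 4.96 (median 3.75). On HFC arrays they had 0.45 to 3.47 (median 2.77), -1.35 to 2.33 (median 0.92) and 2.64 to 5.19 (median 4.53). The LFC array of week 18 was lowest for all 3 genes, and the diets overlapped.

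The short chain collagen Col8a1, of vessel walls and of the sheet under the corneal endothelium, had levels of -5.29 to 4.25 (median 1.54) on LFC arrays and 1.36 to 4.52 (median 3.25) on HFC arrays. Its partner Col8a2 had 1.77, 1.18, 0.41, 1.52 and 1.94 on the week 6 arrays of LFC, HFC, HF5, HF20 and HF75 and 1.24 on the HF5 array of week 18, and was below 0 on all others of these diets. Col12a1 and Col14a1, which bind to the surface of type I fibrils, had medians of -2.63 and 1.27 on LFC arrays and of -2.36 and 2.37 on HFC arrays. Col15a1 and Col18a1, chains with attached sugar chains in and next to basement membranes, had -6.79 to 1.88 (median 0.86) and -1.65 to 4.92 (median 3.50) on LFC arrays. On HFC arrays Col15a1 had -0.96 to 1.88 (median 1.38) and Col18a1 0.00 to 5.30 (median 3.94). The 4 transmembrane genes, Col7a1 of anchoring fibrils and Col28a1 are shown in the map of all members.

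Chains of the same collagen were compared across the arrays, since a molecule needs its chains together, and Col1a1 was also compared with Col3a1, whose collagens share fibrils. Of 11 pairs listed, 10 could be measured, and all 10 had a permutation p with a Benjamini-Hochberg adjusted value under 0.05. Pairs of other genes were not examined, so nothing particular to collagen chains follows from this count. Col4a1 and Col4a2 had Pearson's r = 0.977 (n = 38, permutation p = 1e-05, the smallest that 100000 resamples can give, adjusted 2e-05) and Spearman's rho = 0.912 (permutation p = 1e-05). Without the LFC array of week 18 and the HF5 array of week 3, the 2 farthest arrays, r was 0.937. Their transcription starts lie 21 bases apart on opposite strands. Col6a1 had r = 0.893 (rho 0.858) with Col6a2 over 37 arrays and r = 0.878 (rho 0.735) with Col6a3 over 38. Without the LFC arrays of week 18 and day 14 these were 0.849 and 0.812. Both had a permutation p of 1e-05 for r and an adjusted value of 2e-05.

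For Col1a1 and Col1a2, r was 0.917 over 36 arrays (permutation p = 2e-05, adjusted 2.9e-05, rho 0.515 with permutation p = 0.00175). Without the LFC arrays of week 18 and day 10 it was 0.50, so much of the pooled value rests on them. Of all 38 arrays, which include 2 where Col1a1 was dropped as an outlier, 24 were saturated for either chain. Col1a1 and Col3a1 went from 0.942 to 0.632 without the LFC arrays of week 18 and day 10. The other pairs had r of 0.725 (Col5a1 and Col5a2), 0.62 (Col8a1 and Col8a2), 0.612 (Col4a3 and Col4a4), 0.529 (Col4a5 and Col4a6) and 0.370 (Col11a1 and Col11a2), the lowest of the 10. Without the 4 arrays with WS in their titles the last was 0.189 (adjusted permutation p = 0.291). Without the LFC array of week 18 and the HF5 array of week 3, its farthest arrays, it was 0.594 (adjusted permutation p = 0.00013). The arrays were scanned on 15 days with at most 5 arrays on a day, too few for a value within a day. The mean of each scan day was then subtracted, over the days with more than 1 array. After this r was 0.971 for Col4a1 and Col4a2, 0.861 for Col6a1 and Col6a2 and 0.387 for Col11a1 and Col11a2. All 10 pairs had an adjusted permutation p under 0.05, but values were shuffled over all days and not within each. The shuffle does not allow for the day means taken out, so these p values are too small. A weak pair such as Col11a1 and Col11a2 cannot be judged by them. The r values still include the LFC array of week 18.

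**Figure D3:**
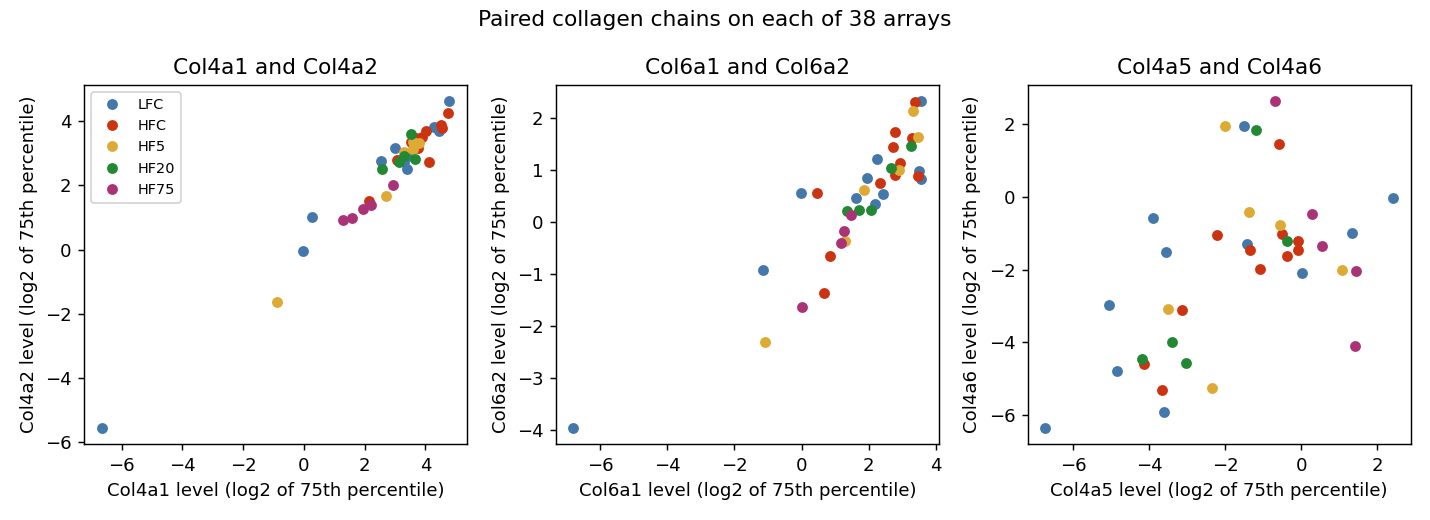
Each point is 1 of 38 arrays, coloured by diet, with the levels of 2 chains of the same collagen on the axes (log2 of the intensity relative to the array's 75th percentile). Col4a1 and Col4a2 follow each other most closely (r = 0.977), and Col4a5 and Col4a6 less so (r = 0.529).

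HFC was compared with LFC over 11 pairs of arrays with the same time label, to see what a high-fat diet does to the collagen genes. Of 38 collagen genes tested, 0 passed limma's test at an adjusted p under 0.05, beside 0% of all 20827 genes tested, and 6 had an unadjusted p under 0.05, beside 648 of all genes (3.11%). Without the pair of week 18, 3 of 39 had one, beside 2.32% of 21506 genes. The median log2 difference was 0.59 over the collagen genes and -0.03 over all genes, with 26 collagen genes above 0 and 12 below. By class it was 0.90 for fibrillar, 1.06 for type VI, 0.58 for type IV and -0.39 for fibril-associated genes. Without the pair of week 18 these were 0.28, 0.49, 0.32 and -0.60. The smallest unadjusted p values among genes above 0 belonged to Col2a1 (1.94), Col8a1 (1.90) and Col4a1 (1.75, SE 0.71, adjusted limma p = 0.927). Col4a1 was higher on HFC in 10 of 11 pairs, and without week 18 the differences of the 3 genes were 1.33, 1.21 and 1.04. Col7a1 (-0.86) was lower in 8 of 11. A second Col2a1 probe, above background on 37 of 38 arrays, did not follow the one used (r = 0.077).

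The pairs differed widely. The collagen genes had median differences of -0.96, -0.25, 0.45 and 0.89 for days 1, 6, 10 and 14, and of 0.12, -1.31, -0.08, 0.41, 1.46, 0.09 and 3.41 for weeks 0, 3, 6, 9, 12, 15 and 18. At day 14 and week 3 the median of all genes was shifted too, to 0.75 and -1.51. At weeks 12 and 18, where all genes had medians of 0.00 and 0.09, 33 of 38 collagen genes were higher on HFC. On the LFC array of week 18 the fibroblast list had -3.81, the mural list -4.59 and the endothelial list -4.29, against 2.90, 4.35 and 1.77 on the HFC array, while the macrophage list had 1.57 and 0.87. At week 12 the adipocyte list had 5.12 on LFC and 2.63 on HFC. The skeletal muscle, Schwann, epithelial, T cell, mural and fibroblast lists had -4.13, -1.21, -5.73, -4.46, 2.77 and 2.22 on that LFC array. On the HFC array of week 12 they had 5.16, 2.72, -2.14, -1.69, 4.87 and 3.53. Over all pairs, 10 of 10 fibroblast genes were above 0 (median 1.22). So were 6 of 6 mural (1.51), 5 of 5 endothelial (0.92), 7 of 8 adipocyte (1.07) and 6 of 8 macrophage genes (0.33). The epithelial list had 0 of 5 above 0 (-1.32). In these lists 0 genes passed limma's test. Without week 18 these medians were 0.57, 0.77, 0.37, 0.21, 0.43 and -1.30. The part of these cells in the result was not tested. Without the pair of week 18 the median over the collagen genes was 0.23. It was 0.60 without the pairs of day 14 and week 3 and 0.15 without all 3. Each pair has 1 array per diet and no replicate error of its own.

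Time on diet was examined in LFC and HFC together, with 10 early arrays (days 1 to 14 and week 0) and 12 late arrays (weeks 3 to 18). limma called 0 of 39 collagen genes, beside 0.00463% of 21599 genes, and 0 of the 39 had an unadjusted p under 0.05. The median difference, late minus early, was -0.38 over the collagen genes and 0.02 over all genes. It was below 0 in 21 of 23 alternatives, which ran from -0.57 to 0.08. It was 0.05 without week 18 and -0.57 without day 14 and week 3. Of the adipocyte list, 7 of 8 genes were below 0 (median -2.27) and 4 had an unadjusted p under 0.05, with 0 past limma's threshold. Without week 18 this median was -1.59, again with 7 genes below 0 and 3 at an unadjusted p under 0.05. Also without week 18, 3 of 3 red cell (-1.54) and 5 of 5 endothelial genes (-0.51) were below 0, with 3 and 2 at such a p. Of the macrophage list 7 of 8 were above 0 (0.52), with 1 at such a p. With week 18 these medians were -1.14, -0.82 and 0.61, and 0 genes passed limma's threshold in either case. Every scan day held arrays of 1 era, so the era and the scan day cannot be told apart. Whether the HFC effect differed between late and early pairs was tested as an interaction, and 0 of 38 collagen genes passed limma's test, beside 0% of 20827 genes. Of the collagen genes 1 had an unadjusted p under 0.05, Col14a1, beside 4.76% of all genes. The median interaction was 0.96 over the collagen genes and -0.51 over all genes, and the former was 0.24 without the pair of week 18 and 1.51 without those of day 14 and week 3. The fibroblast list had a median of 1.95, with 10 of 10 genes above 0, and the T cell list of 3.88, with 4 of 5 at an unadjusted p under 0.05 and 0 past limma's threshold in either. Without the pair of week 18 these medians were 1.17, with 8 of 10 above 0, and 4.07, with 4 of 5 at such a p. The part of these cells in the results on time was not tested.

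Each dose of KAL-1 was compared with HFC over the weeks they share, to see what the formulation adds to a high-fat diet. The comparisons share HFC arrays, so their values are not independent of each other. In HF5 over 6 pairs, 0 of 37 collagen genes passed limma's test, beside 0% of 20842 genes, and 4 of the 37 had an unadjusted p under 0.05, beside 5.39% of all genes. The median difference was -0.41 over the collagen genes and -0.00561 over all genes, with 33 collagen genes below 0. At week 3 the median pair difference was -2.54, and 34 genes were lower on HF5. At weeks 6, 9, 12, 15 and 18 it was -0.43, -0.05, -0.73, -0.05 and 0.56. Of 37 genes, 32 were lower on HF5 at week 12 and 30 were higher at week 18. Without week 3 the median over the collagen genes was -0.00366. On the HF5 array of week 3 the fibroblast list without collagens had 1.13, the endothelial list -2.77 and the mural list -1.15. On the HFC array of week 3 they had 3.45, 1.01 and 4.24. The Schwann list had -3.27 on HF5 and 1.78 on HFC, and the T cell list 2.37 and 0.89. Over all 6 pairs, 5 of 5 epithelial genes were above 0 (median 1.74). Below 0 were 10 of 10 fibroblast (-0.67), 6 of 6 mural (-0.71) and 5 of 5 endothelial genes (-0.38). So were 4 of 4 Schwann (-0.94) and 5 of 5 T cell genes (-0.63). In these lists 0 genes passed limma's test. How these cells bear on the HF5 result was not tested.

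In HF20 over 5 pairs, 0 of 38 collagen genes passed, beside 0% of 22087 genes by limma, and 5 of the 38 had an unadjusted p under 0.05, beside 12.3% of all genes. The median difference was -0.56 over the collagen genes and 0.08 over all genes, with 31 collagen genes below 0. Col14a1 had levels of 1.00, 2.65, 0.34, 0.84 and 1.36 on HF20 arrays of weeks 3, 6, 9, 12 and 15 and 2.37, 3.28, 2.29, 2.15 and 3.44 on HFC arrays. It was lower on HF20 in all 5 pairs, with overlapping groups, and its difference of -1.47 (SE 0.28) missed the threshold (adjusted limma p = 0.393). The adipocyte list had 5.76 and 5.42 on the HF20 arrays of weeks 12 and 15, against 2.63 and 0.89 on HFC. The collagen medians of those pairs were -0.73 and -1.26, against 0.01, -0.31 and -0.00145 at weeks 3, 6 and 9. Of the fibroblast list 9 of 10 genes were below 0 (median -0.79), of the mural list 5 of 6 (-1.10) and of the T cell list 4 of 5 (-1.80). With limma 0 of these or of the adipocyte genes passed, and 7, 3, 3 and 4 had an unadjusted p under 0.05. Of the macrophage list 8 of 8 genes were below 0 (-0.58), with 3 at such a p and 0 past the threshold. Below 0 were also 5 of 5 endothelial (-0.68), 4 of 4 B cell (-1.27) and 4 of 4 Schwann genes (-1.33), with 0 at such a p. The part of these cells in the collagen result was not tested.

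In HF75 over 5 pairs, 5 of 37 collagen genes passed limma's test, all lower than in HFC. Among all 20656 genes tested, 1.10% passed in either direction and 0.184% passed as lower, which is 227 and 38 genes. The 5 collagen genes were Col4a2, Col6a1, Col5a3, Col6a3 and Col5a1, of basement membrane, beaded filament and fibrillar collagens. Of the 37, 16 had an unadjusted p under 0.05, beside 14.4% of all genes. The median difference was -0.33 over the collagen genes and 0.02 over all genes, with 23 collagen genes below 0 and 14 above. It ran from -0.57 to -0.15 with a week left out. Without the 3 genes saturated on some arrays it was -0.34, with 21 genes below 0 and 13 above.

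Col4a2 had levels of 2.79, 3.16, 3.36, 3.68 and 3.48 on the HFC arrays of weeks 3, 6, 9, 12 and 15, and of 1.26, 0.99, 0.93, 1.37 and 2.01 on the HF75 arrays. The highest HF75 level, at week 15, lay below the lowest HFC level, at week 3. Col4a2 thus fell by 1.98 on the log2 scale (SE 0.26, adjusted limma p = 0.0232). For Col6a1 the HFC levels in the same order of weeks were 2.32, 3.47, 2.94, 2.72 and 3.36, and the HF75 levels were 0.00, 1.45, 1.25, 1.48 and 1.17. Week 3 was lowest in both groups, which did not overlap, and Col6a1 fell by 1.89 (SE 0.25, adjusted limma p = 0.0260). Col6a3 went from 4.44, 4.53, 4.56, 5.01 and 5.18 on HFC to 2.46, 3.30, 2.45, 3.00 and 3.86 on HF75. Its groups did not overlap, with HF75 highest at week 15, and it fell by 1.73 (SE 0.25, adjusted limma p = 0.0332). Levels of Col5a3 were 3.93, 3.89, 4.41, 4.55 and 4.84 on HFC and 2.27, 1.36, 2.39, 2.96 and 3.31 on HF75. They did not overlap, HF75 was lowest at week 6, and Col5a3 fell by 1.87 (SE 0.25, adjusted limma p = 0.0260). Levels of Col5a1 were 3.14, 4.09, 3.36, 3.78 and 4.00 on HFC and 1.73, 2.28, 1.99, 2.47 and 2.69 on HF75. Again the groups did not overlap, and Col5a1 fell by 1.44 (SE 0.22, adjusted limma p = 0.0365). These genes were called on the same arrays, so the lack of overlap adds no separate evidence. The share of all genes whose groups do not overlap was not counted.

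**Figure D4:**
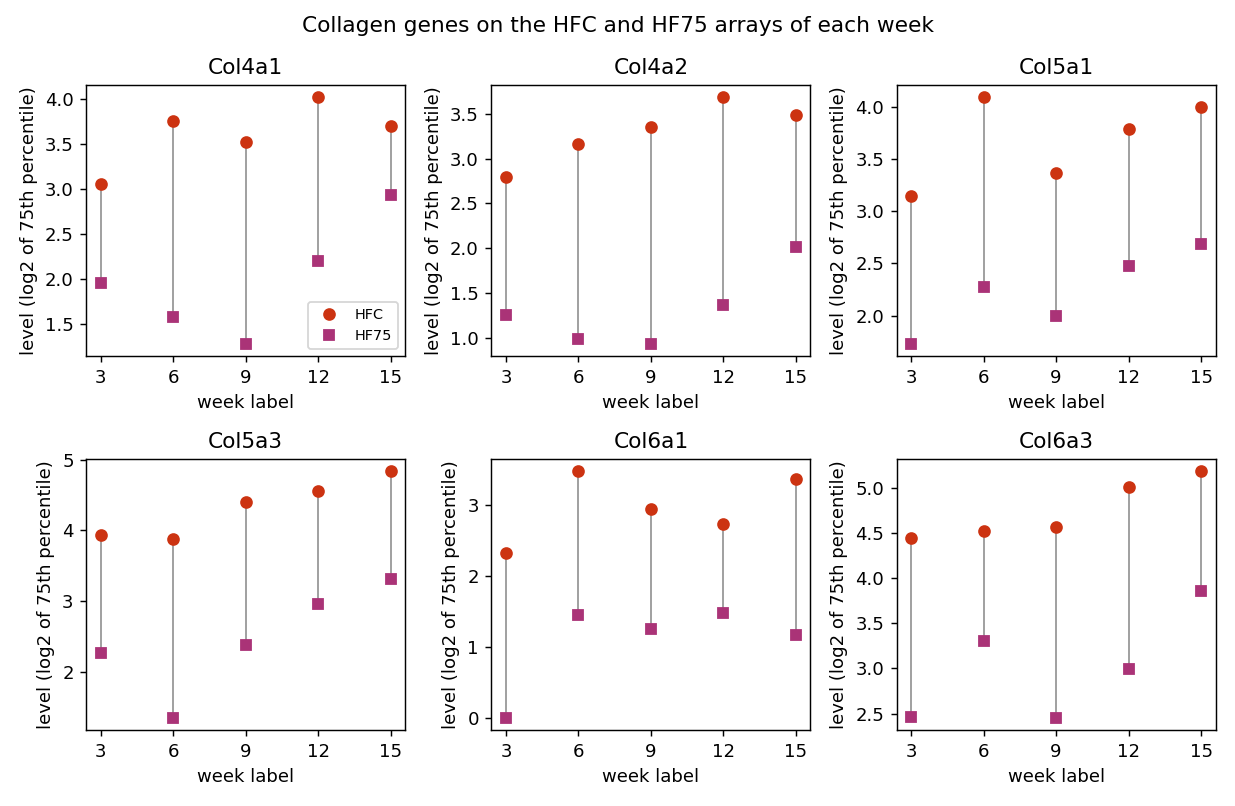
Levels of 6 collagen genes (log2 of the intensity relative to the array's 75th percentile) on the HFC and HF75 arrays of weeks 3, 6, 9, 12 and 15, with a line joining the arrays of a week. All 5 HF75 levels lie below all 5 HFC levels in each of the 6 panels, of which Col4a1 missed the threshold (adjusted limma p = 0.0727). The other 5 genes were called on these same arrays, and the share of all genes that separate this way was not counted.

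Chains that work with these 5 had differences near theirs and missed the threshold. Col4a1 had 3.05, 3.76, 3.53, 4.02 and 3.70 on HFC and 1.95, 1.57, 1.28, 2.20 and 2.93 on HF75, without overlap, and a difference of -1.63 (SE 0.31, adjusted limma p = 0.0727). Col5a2 had a difference of -1.38 (adjusted limma p = 0.0803) and was lower on HF75 in all 5 pairs. For Col6a2 the difference was -1.93 (adjusted limma p = 0.0853), lower in all 4 pairs left after its HF75 value of week 6 was dropped as an outlier. Col2a1, the main chain of cartilage fibrils, had -1.91 (adjusted limma p = 0.0554), and its second probe did not follow the one used (r = 0.077). Not all collagens lay that way. Col24a1 had 2.80 (SE 0.89, adjusted limma p = 0.238) and Col4a5 1.64 (SE 0.64, adjusted limma p = 0.304), both higher on HF75 in 4 of 5 pairs. The Col4a5 differences were 1.54, -0.12, 4.53, 0.64 and 1.62 at weeks 3, 6, 9, 12 and 15. The largest was at week 9, where the HFC array has WS in its title. For Col1a1 the HFC levels are lower limits on 3 of 5 arrays, and for Col1a2 and Col3a1 on all 5, so no difference is given for these genes. By class, the median difference was -1.89 for the 3 type VI genes, -1.05 for the 6 type IV genes, -0.44 for the 8 fibrillar genes not saturated on any array and -0.33 for 7 fibril-associated genes.

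These 5 calls depend on all 5 weeks and on the pairing: leaving out any week gave 0 collagen genes past the threshold, and so did the test without the time label as a block. The arrays of a pair come from different animals, and over all genes their deviations from the mean of each diet had r of 0.576, 0.524, -0.00608, 0.142 and -0.0215 at weeks 3, 6, 9, 12 and 15. The differences of the 5 genes were below 0 in all 17 alternatives tried. With a week left out they were -2.11 to -1.87 for Col4a2, -2.05 to -1.79 for Col6a1 and -1.95 to -1.70 for Col5a3. They were -1.86 to -1.64 for Col6a3 and -1.48 to -1.35 for Col5a1. Over all alternatives the smallest sizes were -1.71, -1.64, -1.22, -0.93 and -0.92 in the same order of genes. HF75 arrays were scanned with HFC arrays at weeks 12 and 15 only, and over those 2 pairs 0 collagen genes passed while their median difference was -0.77. In the week 9 pair the title of the HFC array holds the letters WS, and that of the HF75 array does not. Where a gene had further probes, they did not always follow the probe used. Over 38 arrays the second probe had r = 0.948 for Col4a2 and 0.974 for Col4a1, but 0.238 for Col5a1, 0.346 for Col5a3 and 0.349 for Col6a3. With the mean of all probes, 2 collagen genes passed, Col4a2 and Col6a1. Among 22 further probes that exceeded background on no fewer than 50% of arrays, the median r was 0.616.

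Genes that modify, process, cross-link, bind and degrade collagen were followed beside the chains. Of 49 such genes on the array, 45 were tested in HF75, 4 passed as lower (0.184% of all genes did) and 0 as higher, and the median difference was -0.73. An unadjusted p under 0.05 was found for 28 of the 45, beside 14.4% of all genes. The 4 lower genes were Lepre1, which hydroxylates prolines of the chains (-1.82), Loxl1, a cross-linking oxidase (-2.04), Mmp2, a matrix protease (-2.43), and Ctsk, a collagen-cleaving protease (-1.50), with adjusted limma p values of 0.0463, 0.0417, 0.0312 and 0.0496. Each was lower on HF75 in all 5 pairs. On the other side 8 of the 45 lay above 0, and Itga1 (4.10, adjusted limma p = 0.0787) and Mmp13 (3.33, adjusted limma p = 0.0965) were higher in all 5 pairs and missed the threshold. Of the same list, 0 of 47 genes passed in HFC against LFC, 0 of 46 in HF5 and 0 of 46 in HF20, with medians of 0.68, -0.38 and -0.61. By an unadjusted p under 0.05, limma gave 6, 2 and 16, beside 3.11%, 5.39% and 12.3% of all genes.

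Cell markers were followed beside the HF75 result. Of 10 fibroblast markers other than collagens, 2 passed as lower, Dpt (-2.43) and Fbn1 (-2.04), beside the same 0.184% of all genes. Of the 10, 9 were below 0 (median -0.99) and 7 had an unadjusted p under 0.05 by limma, beside 14.4% of all genes. The list had mean levels of 3.45, 4.02, 3.30, 3.53 and 4.02 on HFC and 2.16, 2.94, 2.72, 2.78 and 2.75 on HF75 at weeks 3 to 15, without overlap. Dcn, its brightest probe, was saturated on all 5 HFC arrays and on 3 of the HF75 arrays. The macrophage list, with 0 of 8 genes past the threshold and 5 at an unadjusted p under 0.05 by limma, had 0.68, 2.77, 1.18, 1.02 and 1.41 on HFC and 0.36, 0.44, 0.42, 0.27 and 0.79 on HF75. The endothelial list had 1.01, 0.80, 1.35, 2.04 and 1.64 on HFC and 1.28, 1.02, -0.13, 1.42 and 2.05 on HF75, and the mural list 4.24, 4.57, 3.61, 4.87 and 4.16 on HFC and 4.27, 5.15, 2.45, 4.47 and 4.96 on HF75, both with overlap. In the endothelial, mural, adipocyte, T cell, B cell, skeletal muscle, epithelial, Schwann, cartilage and bone, and red cell lists 0 genes passed limma's test, and at an unadjusted p under 0.05 there were 0, 0, 1, 0, 0, 0, 2, 0, 2 and 0. Their median differences in this order were -0.26, -0.11, 0.43, 0.07, 0.28, 0.74, 1.88, 0.42, 0.78 and -1.45. Of the epithelial list 5 of 5 genes were above 0, and of the red cell list 0 of 3. The part of these cells in the collagen result was not tested.

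The titles of 4 week 9 arrays, those of LFC, HFC, HF5 and HF20, hold the letters WS, which the labels do not explain. They were compared with the 8 arrays of the same diets at weeks 6 and 15. limma called 3 of 38 collagen genes, all lower on the WS arrays, beside 7.73% of 22401 genes in either direction and 2.81% as lower, and 16 collagen genes had an unadjusted p under 0.05, beside 30.3% of all genes. The median difference was -0.55 over the collagen genes and 0.04 over all genes, and -1.87 over 7 fibril-associated genes. Without the 3 genes with saturated arrays the first of these was -0.58. Col14a1 had levels of 1.27, 2.29, 1.26 and 0.34 on the WS arrays of LFC, HFC, HF5 and HF20, 2.12, 3.28, 2.15 and 2.65 at week 6 and 2.28, 3.44, 3.03 and 1.36 at week 15. The arrays of LFC and HF5 at week 6 and of LFC and HF20 at week 15 lay inside the WS range, so 4 of 8 overlapped, and Col14a1 fell by 1.25 (SE 0.29, adjusted limma p = 0.0439). For Col11a1 the WS levels in the same order of diets were -5.08, -4.19, -3.87 and -4.20, against -1.81, -2.17, -2.09 and -2.08 at week 6 and -0.39, -0.81, -0.66 and -4.39 at week 15. Here the HF20 array of week 15 lay inside the WS range, and Col11a1 fell by 2.54 (SE 0.61, adjusted limma p = 0.0442). Col16a1, a fibril-associated chain, had 0.37, 1.46, 1.10 and 0.80 on WS arrays, 4.18, 3.60, 3.06 and 3.94 at week 6 and 2.93, 3.39, 3.36 and 0.82 at week 15. It fell by 2.23 (SE 0.54, adjusted limma p = 0.0445), with the same HF20 array inside the WS range. The second probes of Col14a1, Col11a1 and Col16a1 had r of -0.155, 0.644 and 0.092 with the probes used. They were above background on 13, 21 and 22 of 38 arrays.

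The adipocyte list, with Cfd its brightest probe, had 5.37, 5.01, 5.20 and 5.29 on the WS arrays of LFC, HFC, HF5 and HF20, 0.61, -0.27, 1.25 and 0.62 at week 6 and 1.28, 0.89, -0.11 and 5.42 at week 15, and 6 of its 8 genes passed as higher on the WS arrays, beside 4.92% of all genes. Its high value at week 15 was on the HF20 array. On each WS array 7 of the 8 genes were saturated, so these means are lower limits, as is the HF20 one, with 6. Of the epithelial list, 4 of 5 genes passed as lower, and of the pathway list 3 of 46, Plod2, Timp1 and Timp2, beside 2.81% of all genes. Timp2 was saturated on 6 of the 8 arrays of weeks 6 and 15 and on 1 WS array, so its levels there are lower limits. From the other lists single genes passed as lower, beside the same 2.81% of all genes. They were Pdgfra of 10 fibroblast genes, Cd14 of 8 macrophage genes and Sox9 of 4 cartilage and bone genes on the array. The adipocyte list was also high on the HFC arrays of days 1 and 6, the LFC arrays of day 6 and week 12 and the HF20 array of week 12, at 4.79, 6.21, 6.36, 5.12 and 5.76. The part of these cells in the collagen differences was not tested. The WS arrays are all of week 9 and were scanned on a day that held no other array. Within their diets the letters, the week and the scan day cannot be told apart. The week 9 array of HF75, on another scan day, holds no such letters. Its levels of Col14a1, Col11a1 and Col16a1 were 1.74, -1.52 and 1.30, and its adipocyte list had 3.41. HF75 had 2.59, -1.56, 3.67 and 1.34 for these at week 6, and 1.44, 1.05, 3.68 and 2.81 at week 15. With 1 such array, of a further diet, the part of the week was not tested. Leaving out weeks or diets moved the count from 0 to 20: it was 20 without the week 15 arrays, beside 27.8% of all genes, 13 without the HF20 arrays, beside 19.1%, and 0 without week 6 or without LFC, HFC or HF5. It was also 0 with normexp background correction, with the mean of all probes, without a filter on dim genes, against weeks 6 and 12 and against all other weeks.

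The genes past the threshold in HF75 moved in the same direction, so the 250 bases before their starts are shown, from RefSeq on build GRCm38.p6. Of the 40 collagen genes, 32 had an entry, and so did all 5 called genes. The bases before Col4a2 lie inside the transcribed part of Col4a1 and are not printed. The windows, 5′ to 3′ on the strand of the gene, are chr2:27886175-27886424 on the plus strand for Col5a1, chr9:20815068-20815317 on the minus strand for Col5a3, chr10:76726045-76726294 on the minus strand for Col6a1 and chr1:90843972-90844221 on the minus strand for Col6a3. Capitals mark 2 motifs searched on both strands, the CCAAT box (CCAAT or ATTGG) and the GC box (GGGCGG or CCGCCC), which share no bases here. The same 250 bases before the start were searched in 32841 promoter windows, of which 33.9% held a CCAAT box and 32.7% a GC box. Of the 35 windows of collagen genes 12 and 19 did. Col5a1 has 2 GC boxes and Col5a3 has 1 CCAAT box and 2 GC boxes in the bases shown, while Col6a1 and Col6a3 have neither. A match describes these letters only.
Col5a1: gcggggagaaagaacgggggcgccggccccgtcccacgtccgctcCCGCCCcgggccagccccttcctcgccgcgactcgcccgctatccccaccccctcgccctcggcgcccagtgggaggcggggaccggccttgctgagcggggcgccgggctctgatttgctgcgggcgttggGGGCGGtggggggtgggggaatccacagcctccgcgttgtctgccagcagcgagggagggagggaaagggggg
Col5a3: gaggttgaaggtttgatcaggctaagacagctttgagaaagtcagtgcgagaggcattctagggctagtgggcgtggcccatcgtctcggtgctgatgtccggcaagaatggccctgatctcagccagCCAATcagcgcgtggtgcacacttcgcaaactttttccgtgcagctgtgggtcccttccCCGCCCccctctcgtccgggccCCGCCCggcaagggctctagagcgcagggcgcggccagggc
Col6a1: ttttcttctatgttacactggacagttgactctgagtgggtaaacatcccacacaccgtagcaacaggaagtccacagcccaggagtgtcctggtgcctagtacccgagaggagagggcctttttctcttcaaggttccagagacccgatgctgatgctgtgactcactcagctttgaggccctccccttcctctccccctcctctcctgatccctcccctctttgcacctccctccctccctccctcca
Col6a3: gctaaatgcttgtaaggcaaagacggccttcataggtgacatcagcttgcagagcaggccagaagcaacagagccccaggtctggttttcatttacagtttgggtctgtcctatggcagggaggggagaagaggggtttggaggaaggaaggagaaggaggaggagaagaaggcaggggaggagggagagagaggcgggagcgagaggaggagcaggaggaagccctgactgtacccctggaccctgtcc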

How the data were processed

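RNA of subcutaneous stromal vascular cells was measured on 40 arrays, of which 38 had labels that fit together. The authors deposited the scanner intensities, made per the file headers by Agilent Feature Extraction 10.5.1.1 with background subtraction and spatial detrending within each array and no normalization between arrays. From a second deposited table, of fold changes relative to LFC at each time, only the gene symbols were taken, and its fold change columns were not used. Each array's 75th percentile was subtracted from the log2 intensities. Spots marked as outliers were dropped and the remaining spots of a probe averaged. A gene was tested where no fewer than 50% of the arrays in either group exceeded background. limma (3.58.1, R 4.3.3) tested the differences, with time label as a block for diet comparisons, and p-values were adjusted by Benjamini-Hochberg over all genes tested, at 0.05. The limma step was tested on simulated data. Correlations and tables used Python 3.11.15, with SciPy 1.17.1, pandas 2.3.3 and NumPy 2.4.6. Named genes were 15 chains set by name, the collagen genes past a threshold, the 3 with the highest and the 3 with the lowest mean levels and the 5 with the largest SD. Col2a1, Col7a1 and others beyond that rule were named after their values were seen. The members and lists were chosen with earlier results of these data known. Alternatives covered background correction (normexp with an offset of 50), normalization, the raising of dim values, filters, probes, array weights, blocks and arrays left out.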

Additional observations from a re-analysis of the deposited data

Results flagged for a closer look

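The named collagen genes gave 75 groups of 4 to 6 arrays of HF5, HF20 and HF75, each examined with Dixon's test for its highest and its lowest array, and in 9 groups an array stood apart. Chance alone gives about 1 in 20 groups, and genes measured on the same array are not independent. The HF5 array of week 3 accounted for 8. Its levels were -0.026 for Col5a1, where the next lowest HF5 array had 2.75, -2.02 for Col5a2 (next 1.28), 0.11 for Col5a3 (next 2.88), -0.89 for Col4a1 (next 2.70) and -1.62 for Col4a2 (next 1.68). They were 0.90 for Col6a3 (next 3.29), -2.66 for Col15a1 (next 0.47) and -0.11 for Col18a1 (next 3.77). All 8 genes were above background there. The remaining group was Col6a1 on HF75, where the array of week 3 had 0.0025 and the next lowest array 1.17. Leaving out the pair of week 3 gave 0 collagen genes past the threshold in HF75, as did leaving out any other pair. The Col6a1 difference in HF75 ran from -2.05 to -1.79 with each pair left out in turn. In HF5 the count was 0 with the week 3 pair and without it.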

How the results depend on the processing

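The count of collagen genes past the threshold was 0 in every alternative tried for HFC against LFC (27), HF5 against HFC (18), HF20 against HFC (17) and the interaction (23). For HF75 against HFC, where the main count was 5, it was 2 with normexp (1.04% of all genes, main 1.10%), 2 with the mean of all probes (0.984%), 14 without a filter on dim genes (16.4%) and 13 with array weights (5.44%). It was 0 without the pairing by time label as a block, 0 without the week 9 pair, 0 over the 2 pairs scanned on the same day, where the median of the collagen genes was -0.77 in place of -0.33, and 0 to 0 with each pair left out in turn. With fewer pairs a test has fewer residual degrees of freedom, and otherwise the cause was not tested. The count was 6 with quantile normalization (1.31% of all genes) and 5 with dim values not raised. For the late against early comparison the count was 0 in 22 of 23 alternatives and 1 with array weights, Col28a1, and the median was below 0 in 21 of 23. For the WS arrays, where the main count was 3, it was 0 with normexp (1.78% of all genes, main 7.73%), 0 without a filter, 0 with the mean of all probes, 6 with genes above background on every array (13.6%) and 21 with array weights (42.4%). It was 0 against weeks 6 and 12, 0 against all other weeks, and 0 to 20 with a diet or week left out, and the cause was not tested. Chain pairs had adjusted p under 0.05 for 9 or 10 of 10 pairs under 6 alternatives, and Col11a1 with Col11a2 lost it without the WS arrays (r = 0.189). For the alternative with scan day means subtracted, the p values are too small, as said above.

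Normexp also moved the median of all genes: to -0.22 in HF5, -0.32 in HF20, -0.17 in HF75 and 0.48 in the interaction, where the collagen genes had -0.54, -0.65, -0.51 and 1.33. The median collagen difference of HFC against LFC was below 0 in 1 of 27 alternatives, -0.08 with the slide as a block, where all genes had -0.35. The alternatives by scan day, by probes without a saturated spot, without the saturated genes, without the LFC pairs of day 14, week 3 and week 18 together, by correlation without 4 arrays, and SDs and marker lists without named arrays were chosen after seeing the data. Each diet and time label has 1 array, so a difference at a time has no replicate error. Spot intensity over background was 1.53 on the dimmest array and 55.4 on the highest, and dim genes are least certain where it is low. Saturated spots hide differences in Col1a1, Col1a2 and Col3a1. Without these 3 genes the medians were 0.50 in HFC against LFC, -0.46 in HF5, -0.65 in HF20 and 0.85 in the interaction.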

Other observations

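The 2 arrays of week 18 that entered no group carried labels of HF20 and HF75 that conflict with each other. On the one scanned with 21710 spots marked as outliers, 17 collagen genes were dropped. Its levels were 3.12 for Col1a1, 0.58 for Col4a1, 0.22 for Col5a1 and 1.21 for Col6a3. The other array had 6.24, 3.05, 3.13 and 4.00 for the same genes, with 37 of 40 collagen genes above background. No mean or test was made from them.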
